A study of Mus musculus with 22 samples.

Results

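Activated macrophages open stretches of chromatin that resting macrophages keep closed, and the sites described here are those with an accessibility peak when lipopolysaccharide (LPS) and lactic acid (LA) were given together but none with LPS alone or in untreated cells. Bone marrow-derived macrophages of C57/BL6 mice, cultured for 7 days, were treated for 3 h. Open chromatin was read by ATAC-seq (a transposase cuts accessible DNA and the cuts are sequenced) in 12 samples of 50000 cells each. They were LPS+LA (100 ng/ml LPS with 10 mM L-(+)-lactic acid), LA alone, LPS alone and untreated control, with 3 samples each. RNA was counted in 10 libraries, 2 each of LPS+LA, LPS+HCl (LPS at a low pH such as 6.5, set with hydrochloric acid), LA, LPS and control. Nothing in the labels says that samples of a group came from separate mice or cultures, so the p-values below reflect only how far these samples varied, and part of that may be technical.

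Peaks of the 12 lists that shared at least 1 bp were merged into 127890 sites. A site was kept if it had a peak in 3 of 3 LPS+LA samples, 0 of 3 LPS samples and 0 of 3 control samples, which left 2264 sites, selected on the peaks of these 9 samples. They are called LPS+LA-only sites below, where "only" refers to LPS and control and not to LA. Those peaks are a description and not a finding. The position of the sites, the sequence under them and the RNA were not used by the rule. LA peaks entered the merging, and so the bounds of the sites, but not the choice among them. Without LA sample 1 the rule kept 2265 sites. The same rule turned round gave 2083 sites with peaks in 3 of 3 LPS samples and none in LPS+LA or control (LPS-only sites), and 1862 sites found in control alone. It gave 441 sites in 3 of 3 LA samples and none in LPS or control.

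LPS is the ligand of Toll-like receptor 4, which acts through NF-kB, AP-1 (dimers of FOS, JUN and ATF proteins) and, by way of interferon beta, the IRF and STAT factors. Such factors bind at enhancers already marked by the macrophage factor PU.1 and also open new ones, many of them far from any gene start. Lactic acid is the end product of glycolysis and leaves activated macrophages together with a proton, so it brings both lactate and acid to the cells.

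All LPS+LA and LA samples carry lane 6 in their file headers, and all LPS and control samples carry lane 5. Treatment with LA and lane therefore cannot be told apart in the rule itself, whereas LPS+LA and LA shared a lane. The lists held 85571, 99435 and 99416 peaks in the LPS+LA samples and 76680 to 80820 in the LA samples. They held 88807 to 100667 in the LPS samples and 80386 to 86566 in the control samples. The files give no read depth for the ATAC samples. RNA libraries held 18668648 to 20219888 counts, and the 2 libraries of a group correlated at r = 0.982 to 0.992 over log2 CPM. The 16 genes of a macrophage identity list summed to between 26700 and 35000 CPM in the 10 libraries. CPM values here and below are counts scaled to the library total multiplied by the library's TMM factor (a scaling factor from edgeR). The factors ran from 0.759 in LPS library 2 to 1.267 in control library 1, so these values differ from those under total-count scaling. The 8 neuron markers summed to 23.5 CPM in LPS+HCl library 2 and 13.1 CPM in control library 1, against at most 4.9 CPM in the others. The 6 fibroblast markers summed to 0.589 and 0.527 CPM in LPS+LA, 1.11 and 3.48 CPM in LPS+HCl, 0.571 and 0 CPM in LA, 11.0 and 10.2 CPM in LPS and 0.323 and 0.601 CPM in control. They were thus highest in the LPS libraries, and their part in the differences from LPS was not tested.

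The sites were mostly weak and narrow peaks. Their median peak score, the authors' own value per peak, was 8.73, 14.01 and 13.3 in the 3 LPS+LA samples. This lay at percentile 20.3, 29.3 and 28.2 of all peaks in the same list. The median width of a merged site was 302 bp, against 428 bp over all sites. LPS-only and control-only sites were also narrower than all sites, with medians of 343 and 326 bp. Scores reached 83.8, 132 and 148 at the strongest. Just outside the rule, 2498 sites had peaks in 2 of 3 LPS+LA samples and in no LPS or control sample, and 1911 of these lacked one in LPS+LA sample 1. Another 1309 sites had peaks in 3 of 3 LPS+LA samples and in 1 LPS or control sample, 1123 of them in LPS, where the extra peak had a median score of 7.27. LPS+LA sample 1 had the fewest peaks of its group, and the rule applied without it kept 4174 sites.

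Few of the sites lay at gene starts. Within 1 kb of an annotated protein-coding start lay 2.28% of the LPS+LA-only sites (50 of the 2193 that the start annotation covered). This compares with 9.68% of all sites and 17.7% of the sites open in 12 of 12 samples. The share was 2.21% for LPS-only sites. A share of 58.2% lay inside the bounds of a protein-coding gene, against 60.6% of all sites. More than 50 kb from any protein-coding start lay 38.0%, against 35.1% of all sites. A peak of an LPS or control sample lay within 5 kb of 1715 of them (75.8%) and within 500 bp of 348 (15.4%). Another LPS+LA-only site lay within 50 kb of 607 (26.8%).

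Sequence could be read where a site touched a promoter window of the RefSeq tables (250 bases before to 50 bases after a gene start, GRCm38.p6, the build of the files' mm10). This held for 29 sites and 29 genes, 13 of them protein-coding and 16 long non-coding. The 3 windows below are shown because their genes had measured RNA, at least 50% of each window lay inside the site and each held an AP-1 or NF-kB match. Capitals mark matches on either strand to AP-1 (TGANTCA), NF-kB (GGGA, any 4 bases, CC), C/EBP (TTGCNNAA) and RUNX (TGTGGT) letters. None of the 3 sites had an LA peak. The window of Cers2 met the conditions on RNA and cover but held neither match, and its site had a peak in 1 LA sample.
St6gal1, chr16:23290220-23290519, plus strand: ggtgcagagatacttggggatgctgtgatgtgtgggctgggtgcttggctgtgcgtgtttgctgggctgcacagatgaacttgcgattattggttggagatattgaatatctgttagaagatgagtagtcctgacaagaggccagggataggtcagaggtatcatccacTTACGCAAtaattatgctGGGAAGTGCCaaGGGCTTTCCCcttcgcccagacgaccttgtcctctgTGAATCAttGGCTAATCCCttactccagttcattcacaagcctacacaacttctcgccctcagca
Ccr3, chr9:124021721-124022020, plus strand: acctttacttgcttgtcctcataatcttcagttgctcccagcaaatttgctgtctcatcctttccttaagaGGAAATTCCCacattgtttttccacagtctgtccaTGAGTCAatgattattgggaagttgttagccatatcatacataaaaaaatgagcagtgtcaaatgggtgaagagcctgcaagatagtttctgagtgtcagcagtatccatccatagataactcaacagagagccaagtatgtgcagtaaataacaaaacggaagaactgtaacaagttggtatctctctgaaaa
Sbno2, chr10:80101138-80101437, minus strand: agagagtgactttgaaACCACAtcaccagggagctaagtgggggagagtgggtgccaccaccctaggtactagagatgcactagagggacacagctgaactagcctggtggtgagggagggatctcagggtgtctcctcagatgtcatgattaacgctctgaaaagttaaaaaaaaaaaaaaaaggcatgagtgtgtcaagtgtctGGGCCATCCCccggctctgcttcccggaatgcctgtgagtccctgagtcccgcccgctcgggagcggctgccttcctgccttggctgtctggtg

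AP-1 letters were common under these sites. The heptamer stood in 13 of the 29 windows (44.8%), against 7.93% of 27025 windows with 1 per gene and 5.98% of the windows that any site touched. Within the stretches the sites covered there were 16 heptamers, or 3.1 per kb, against 0.279 per kb over all windows. The share was 37.3% (25 of 67 windows) at sites open in both LPS+LA and LPS but not control, 11.1% (3 of 27) at LPS-only sites and 5.41% (2 of 37) at control-only sites. It was similar with and without LA peaks at the site, at 6 of 13 and 7 of 16 windows. Median GC content was 49.7% in the 29 windows, 47.0% at LPS-only sites, 52.7% over all windows and 61.0% in the windows that any site touched. For 7 further protein-coding genes 1 heptamer each is shown in capitals with up to 14 bases on each side, to let the flanks be compared. Dclk1 and Msh4 held 2 each, of which the first is shown.
Dclk1, chr3:55461655-55461689, plus strand: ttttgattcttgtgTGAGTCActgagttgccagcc
Enthd1, chr15:80560454-80560488, minus strand: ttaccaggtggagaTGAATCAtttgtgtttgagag
Hmga1b, chr11:120762544-120762577, plus strand: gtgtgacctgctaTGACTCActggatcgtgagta
Ms4a12, chr19:11232604-11232638, minus strand: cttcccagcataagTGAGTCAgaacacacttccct
Msh4, chr3:153905072-153905106, minus strand: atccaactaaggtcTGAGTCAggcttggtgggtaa
Olfr49, chr14:54283065-54283099, minus strand: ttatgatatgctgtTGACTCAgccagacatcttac
Trim15, chr17:36867156-36867190, minus strand: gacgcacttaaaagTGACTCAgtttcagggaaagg

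Other letters had other distributions. The NF-kB decamer stood in 10 of the 29 windows (34.5%), against 20.5% of all windows and 26.9% of the windows that any site touched. It was found in 9 of the 16 windows at sites with no LA peak and in 1 of the 13 at sites with one. RUNX letters were found in 7 of those 16 windows and in 0 of those 13. They stood in 24.1% of the 29 windows and 16.9% of all windows, and 2 matches lay in the stretches the sites covered. IRF letters (GAAA, any 2 bases, GAAA) stood in 2 of 29 windows (6.9%), against 25.9% (7 of 27) at LPS-only sites and 3.49% of all windows. PU.1 letters (GAGGAAGT) stood in 1 of 29 windows, against 9 of 37 (24.3%) at control-only sites and 3.28% of all windows. The GC box (GGGCGG), typical of CpG-rich promoters, was found in 13.8% of the 29 windows and in 35.9% of all windows. In the windows that any site touched it was found in 63.3%. CRE letters (TGACGTCA), which CREB binds, were in none of the 29 and in 1.88% of all windows. These windows are a small and promoter-near sample of the 2264 sites, and a match in letters does not show that a factor was bound.

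**Figure D1:**
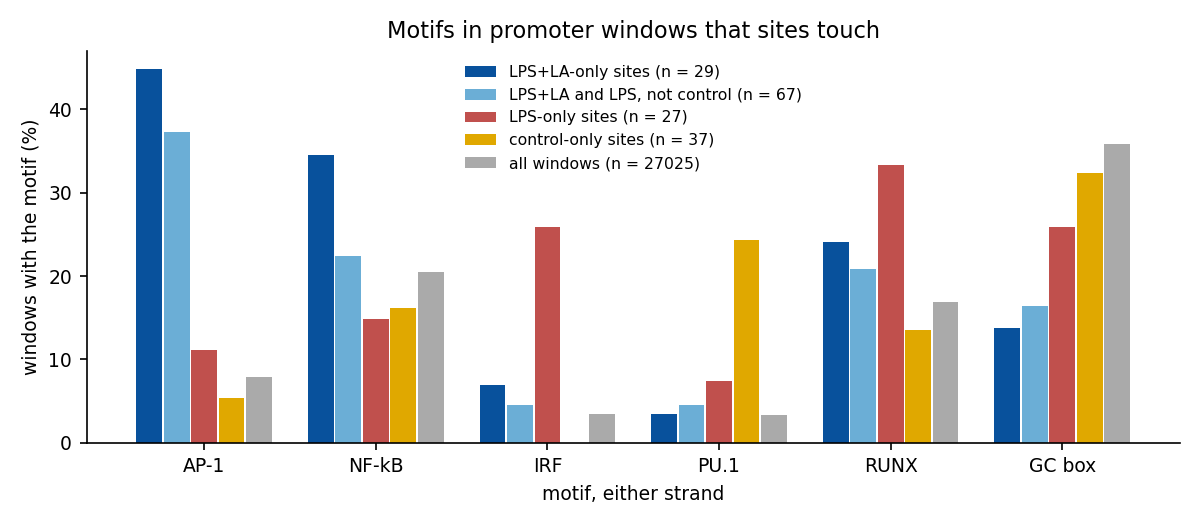
Share of promoter windows (%, y axis) that hold each motif on either strand (x axis), for windows touched by 5 classes of site, with the number of windows in the legend. AP-1 letters were found in 44.8% of windows at LPS+LA-only sites and 7.93% of all windows, and IRF letters in 6.9% and 3.49%.

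RNA of the genes behind the printed windows went in different directions. St6gal1, a Golgi sialyltransferase, had 70.0 and 77.4 CPM in LPS+LA, 110 and 111 CPM in LA, 35.7 and 34.8 CPM in LPS and 121 and 118 CPM in control. LPS+LA lay between LPS and control with no overlap, and the log2 difference from LPS was 1.06 (SE 0.086, adjusted p = 1.83e-10; by the quasi-likelihood test of edgeR, as throughout). Ccr3, an eotaxin receptor, had 5.46 and 4.16 CPM in LPS+LA, 1.19 and 1.74 CPM in LA, 13.7 and 14.7 CPM in LPS and 2.3 and 2.29 CPM in control. It was lower in LPS+LA than in LPS by log2 -1.56 (adjusted p = 1.29e-06) and higher than in control by 1.07 (adjusted p = 0.000731). Sbno2, a transcriptional co-regulator induced by IL-10 signalling, had 323 and 352 CPM in LPS+LA and 305 and 332 CPM in LPS, a log2 difference of 0.08 (adjusted p = 0.373). It stood at 762 and 732 CPM in LPS+HCl, 219 and 208 CPM in LA and 116 and 137 CPM in control.

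A microRNA hairpin lay within 1 kb of 8 sites, 0.365% of the 2193 covered, against 0.238% of all covered sites. Both genomic loci of the miR-29 family were among them. The site at chr1:195036764-195037055 overlapped the start of the miR-29b-2 hairpin and lay 492 bp from miR-29c. The site at chr6:31061957-31062269 lay 391 bp from miR-29a and 754 bp from miR-29b-1. The family represses collagen and other matrix transcripts through its shared seed. Another site stood 475 bp from the miR-511 hairpin, inside the bounds of the mannose receptor gene Mrc1. The mature sequences are shown 5′ to 3′ with the seed (bases 2 to 8) in capitals, which is the same in all 3 miR-29 forms and in no other of the 1679 mature sequences of the table.
mmu-miR-29a-3p: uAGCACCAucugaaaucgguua
mmu-miR-29b-3p: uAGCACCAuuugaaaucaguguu
mmu-miR-29c-3p: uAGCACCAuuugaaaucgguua
mmu-miR-511-3p: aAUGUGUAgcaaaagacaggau

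The chromosome 1 site had scores of 9.88, 26.2 and 8.39 in LPS+LA and no LA peak, and the chromosome 6 site had scores of 6.22, 7.77 and 7.78 in LPS+LA with a peak in 2 of 3 LA samples. MicroRNAs were not measured. The host gene of miR-511, Mrc1, had 329 and 392 CPM in LPS+LA, 358 and 280 CPM in LA, 399 and 445 CPM in LPS and 517 and 486 CPM in control. Its log2 difference between LPS+LA and LPS was -0.23 (adjusted p = 0.0754). It was called lower with DESeq2 size factors, without a count filter, in a fit on the LPS+LA and LPS libraries and without LPS+LA library 2, LA library 1 or LA library 2 (adjusted p = 0.00607 to 0.0484), and was log2 0.17 under total-count scaling (adjusted p = 0.166). In addition it was lower in LA than in control by log2 -0.65 (adjusted p = 0.000176).

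A minority of the sites had a peak with LA alone. A peak was found in 3 of 3 LA samples at 304 sites (13.4%), in 2 at 237 (10.5%), in 1 at 327 (14.4%) and in none at 1396 (61.7%). Over all 127890 sites 51.7% had a peak in 3 of 3 LA samples, 67.0% in any and 33.0% in none. Each LA sample had a peak at 585, 578 and 550 of the 2264 sites. By comparison, 91.7% of the 75345 other sites with peaks in 3 of 3 LPS+LA samples had a peak in at least 1 LA sample, against 38.3% of the LPS+LA-only sites. By the rule, these other sites all had a peak in an LPS or control sample as well. At sites shared by LPS+LA and LPS but absent from control the share was 40.4%, and at sites shared by LPS+LA and control but absent from LPS it was 94.3%. LPS-only sites had an LA peak in 0.912% of cases (19 of 2083), and control-only sites in 50.2% (935 of 1862). Of the 441 sites in LA and not in LPS or control, 304 (68.9%) were also in 3 of 3 LPS+LA samples and 49 (11.1%) in none.

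**Figure D2:**
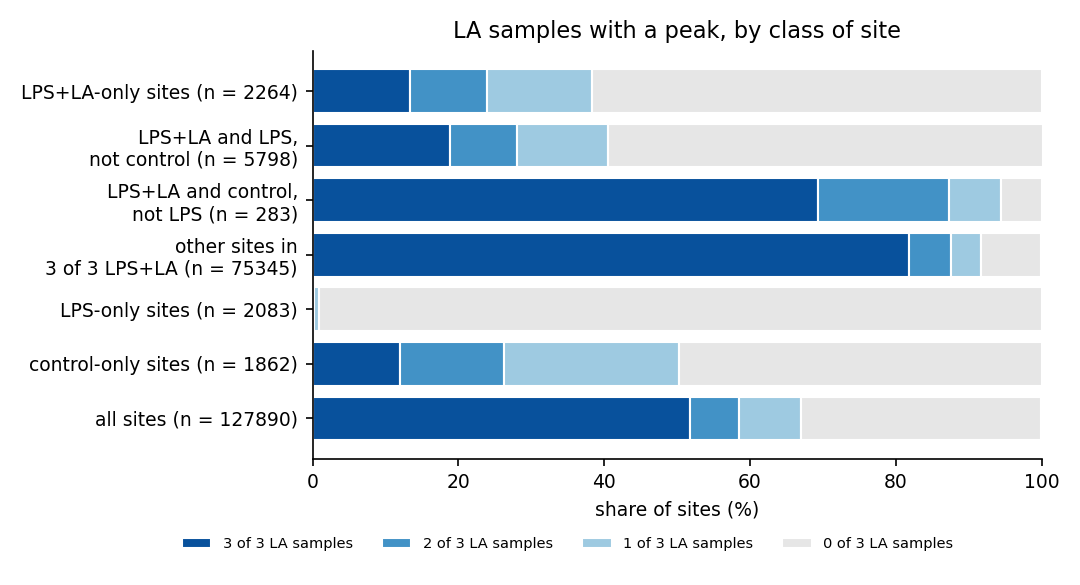
Share of sites (x axis, %) with a peak in 3, 2, 1 or 0 of the 3 LA samples, for 7 classes of site (rows, number of sites in brackets). The other sites in 3 of 3 LPS+LA include the rows above them that share LPS or control. LPS+LA-only sites have an LA peak in 38.3% of cases and LPS-only sites in 0.912%.

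The LA share rose with the strength of the LPS+LA peak. With the sites in 4 groups of about equal size by their smallest LPS+LA score, low to high, it was 29.7%, 33.4%, 37.3% and 53.0%. Other sites with peaks in 3 of 3 LPS+LA samples and scores in the same ranges had LA peaks in 72.9%, 76.4%, 83.2% and 94.5% of cases. Each of these other sites, by the rule, also had a peak in an LPS or control sample. The classes therefore differ in more than score, and the part of this in the gap was not tested. LA lists were also shorter than LPS+LA lists. With every list cut to its 76680 best peaks, 501 sites had a peak in 3 of 3 LA samples and 1042 (48.9%) in none.

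**Figure D3:**
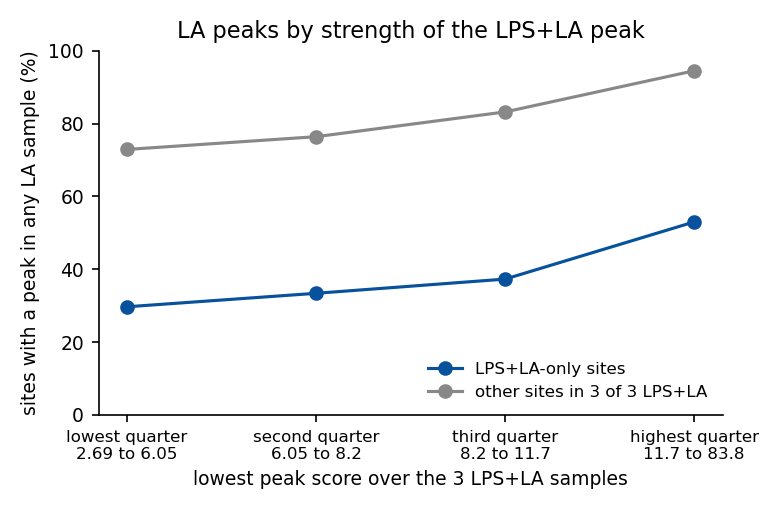
Share of sites with a peak in any LA sample (y axis, %) by the lowest score over the 3 LPS+LA samples (x axis, in 4 groups of about equal size of the LPS+LA-only sites). LPS+LA-only sites run from 29.7% to 53.0%, and other sites in 3 of 3 LPS+LA from 72.9% to 94.5%. The other sites all had a peak in an LPS or control sample.

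The 8 strongest sites, ranked by their smallest LPS+LA score, show both kinds. The first, chr1:131521560-131521933, lay in Srgap2, a regulator of membrane curvature and migration, with scores of 83.8, 132 and 148 in LPS+LA and 23.1, 16.7 and 12.1 in LA. The second, chr12:101979405-101979772, lay in Cpsf2, a subunit of the mRNA cleavage complex, and also had 3 LA peaks. The third, chr12:105007612-105008008, lay in Syne3, a nuclear envelope protein, with 68.4, 76.1 and 78.1 in LPS+LA and no peak in any LA sample. Of the other five, those nearest to Serpinb1b, Il2, Phospho1 and Aebp2 had a peak in 3 of 3 LA samples and that in Dtx3l in 2. Scores come from separate lists and were not compared between samples.

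RNA of these nearest genes was lower in LPS+LA than in LPS for 5 of the 8 and higher for 2. Among the nearest genes of all LPS+LA-only sites 39.3% were lower and 29.7% higher, and among all tested genes 29.7% and 29.2%. Srgap2 had 185 and 217 CPM in LPS+LA against 348 and 353 CPM in LPS, Dtx3l, an E3 ubiquitin ligase of the interferon response, 201 and 239 against 839 and 901, and Aebp2, a Polycomb cofactor, 124 and 120 against 266 and 270. These 3 were lower in LPS+LA than in LPS, by log2 -0.81, -1.98 and -1.14 (adjusted p = 1.71e-08, 8.69e-13 and 9.54e-12). Cpsf2 was lower by log2 -0.61 (adjusted p = 2.06e-06) and Il2 by -3.68 (adjusted p = 0.00216), a call lost without LPS library 1 (adjusted p = 0.0829). Syne3 was higher, with 115 and 106 CPM in LPS+LA against 62.6 and 71.9 CPM in LPS (log2 0.72, adjusted p = 9.72e-08). Phospho1, a phosphatase, was also higher (log2 1.11, adjusted p = 0.000396). Il2 and Serpinb1b did not exceed 3.31 CPM in any library.

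Genes were tied to sites by distance alone, within 50 kb of the gene's bounds. A tested gene lay that near to 1862 sites and none did to 402, and 2697 of 12165 tested genes with a position had at least 1 such site. Of these, 848 (31.4%) were higher in LPS+LA than in LPS and 901 (33.4%) lower, where 29.2% of all 12213 tested genes were higher and 29.7% lower. So the share higher was near the background. With the sites chosen without LPS+LA sample 1, 1355 (31.0%) of 4375 near genes were higher and 1422 (32.5%) lower. In bulk RNA, less RNA per cell and fewer cells of a kind cannot be told apart. Under total-count scaling, which moves the median difference of all genes to log2 0.43 against 0.027, 52.9% of the near genes were higher and 19.6% lower, and 50.8% and 16.6% of all genes.

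The share lower in LPS+LA than in LPS was above that of all tested genes for genes with several sites or a site inside. It was also above it for genes with an LPS-only or control-only site inside. With exactly 1 site within 50 kb, 32.0% of 2193 genes were lower in LPS+LA than in LPS. With 2 sites it was 38.7% of 380 genes, and with 3 or more 42.7% of 124 genes. Of the 992 genes with a site inside their bounds 42.3% were lower and 27.9% higher. Counting the gene nearest to each site alone gave 668 lower (39.3%) and 505 higher (29.7%) of 1701 genes, where the nearest genes of any site were 30.3% lower. For LPS-only sites 46.9% of the 1624 nearest genes were lower and 20.0% higher. For control-only sites 34.2% of the 1537 nearest genes were lower and 31.8% higher. Of 808 genes with an LPS-only site inside 50.5% were lower, and of 835 genes with a control-only site inside 37.0%.

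Some genes near LPS+LA-only sites also had an LPS-only site within 50 kb. It was so for 22.8% of the 2697 genes, 34.7% of the 124 with 3 or more sites and 27.6% of the 992 with a site inside, against 19.8% of all tested genes. Without an LPS-only site there, 33.7% of 2082 near genes were higher and 29.8% lower, and 30.1% of 718 genes with a site inside were higher and 37.6% lower. With an LPS-only site there, 23.9% of 615 near genes were higher and 45.5% lower. Over all tested genes with an LPS-only site there, 24.3% of 2409 were higher and 40.7% lower. Over those without one, 30.5% of 9756 were higher and 27.0% lower. Also without one, 29.1% of genes with 1 LPS+LA-only site were lower, 32.9% with 2 and 34.6% with 3 or more. The part of LPS-only sites in the shares above was not tested. Genes with an LPS+LA-only site inside were long, with a median of 86762 bp against 23213 bp for all tested genes. Among genes of that length or longer, 44.0% of 496 with a site inside and 35.6% of 1292 without one were lower, and 23.8% and 19% were higher. The part of gene length in the shares was not tested.

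Genes near the sites were more often above control than all tested genes, and so were genes near other site classes. In LPS+LA against control 32.3% of the 2697 were higher and 22.9% lower, where 26.4% and 24.9% of all tested genes were. The share higher was 30.9% near LPS-only sites, 30.6% near control-only sites and 31.8% near sites open in LPS+LA and LPS but not control. With 3 or more sites 43.5% were higher. In LPS against control, a comparison that was added later, 39.1% were higher and 30.8% lower, against 32.4% and 32.4% of all tested genes. The share higher was 42.5% near LPS-only sites and 40.5% near sites open in both LPS+LA and LPS. With 3 or more sites 52.4% were higher. These 3 comparisons share libraries, so their shares are not independent of each other. Splitting the sites by LA peaks, 42.7% of the 1790 genes near a site with no LA peak were higher in LPS than in control, and 39.6% of the 429 genes near a site with 3 LA peaks.

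**Figure D4:**
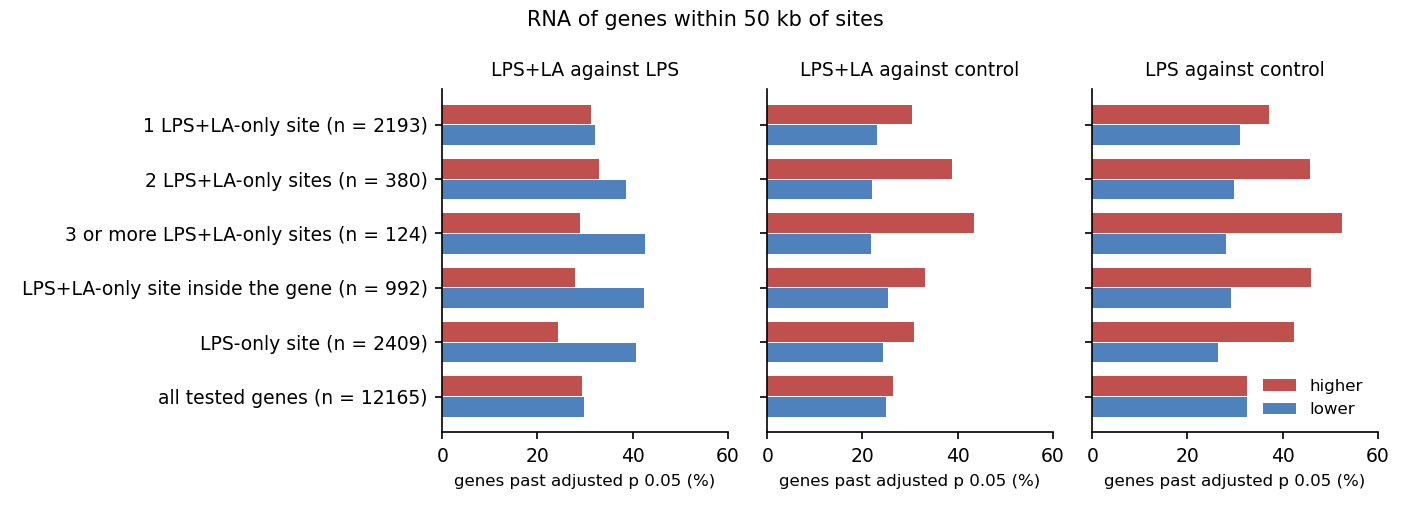
Share of genes (x axis, %) higher (red) or lower (blue) at an adjusted p under 0.05 in 3 comparisons (panels), for genes within 50 kb of sites of each class (rows). With 3 or more LPS+LA-only sites, 42.7% were lower in LPS+LA than in LPS, and 43.5% were higher in LPS+LA than in control.

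With LA alone the shares higher and lower were both above those of all genes, as they were near control-only sites. In LA against control 23.8% of the genes near LPS+LA-only sites were higher and 19.4% lower, where 20.4% and 17.9% of all tested genes were. Near control-only sites 24.6% were higher and 19.6% lower, and near LPS-only sites 19.7% and 20.9%. Total-count scaling turned the balance, to 16.9% higher and 26.6% lower near the sites and 14.1% and 25.1% of all tested genes. Near the sites with 3 LA peaks 29.1% of 429 genes were higher and 18.4% lower, and near the sites with no LA peak 23.2% of 1790 were higher and 19.3% lower. In LPS+HCl against LPS 22.8% of the 2697 genes were higher and 21.5% lower, against 18% and 20.8% of all tested genes. In that comparison 23.3% of the genes near control-only sites were higher and 21.4% lower, and near LPS-only sites 16.5% and 30.3%.

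The type I interferon genes near the sites were all lower in LPS+LA than in LPS. Of 23 tested genes of the list 14 had an LPS+LA-only site within 50 kb, and all 14 were called lower, and higher in both LPS+LA and LPS than in control. Their median log2 difference from LPS was -1.92, against -1.83 for the whole list, of which 23 of 23 were lower, and 0.027 over all tested genes. The genes near sites thus moved as the rest of the list did. None of the 14 sites near them had a peak in any LA sample.

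In the Oasl cluster on chromosome 5, which encodes oligoadenylate synthetase-like antiviral proteins, 3 sites lay within 50 kb of both Oasl1 and Oasl2. Those at chr5:114926260-114926582 and chr5:114926910-114927124 were inside Oasl1, and that at chr5:114911639-114911937 was inside Oasl2. Oasl1 had 447 and 500 CPM in LPS+LA, 1396 and 1328 CPM in LPS+HCl, 5.36 and 14.2 CPM in LA, 1676 and 1663 CPM in LPS and 5.34 and 7.42 CPM in control. LPS+LA stood far above both unstimulated groups and below LPS and LPS+HCl, with a log2 difference from LPS of -1.82 (SE 0.29, adjusted p = 0.00275). Paralogs of the Oas, Oasl and Ifit families can share reads, so their single values are uncertain.

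On chromosome 12 the site at chr12:26460838-26461101, with scores of 14.4, 33.3 and 31.5 in LPS+LA, lay between the neighbours Rsad2 (viperin) and Cmpk2 (a mitochondrial nucleotide kinase), 4386 and 8016 bp from their bounds. Cmpk2 had 325 and 391 CPM in LPS+LA, 2468 and 2474 CPM in LPS+HCl, 8.7 and 9.91 CPM in LA, 6566 and 6856 CPM in LPS and 20.1 and 25.6 CPM in control. Its log2 difference between LPS+LA and LPS was -4.23 (SE 0.1, adjusted p = 3.96e-16), the largest of the 14. Rsad2 was lower by log2 -2.5 (adjusted p = 1.38e-06). Irf1, the factor that primes interferon genes, had 2 sites 1427 and 1890 bp from its bounds, at chr11:53779801-53780154 and chr11:53780264-53780620. It had 377 and 373 CPM in LPS+LA, 800 and 796 CPM in LPS and 30.2 and 29.3 CPM in control.

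Chemokine genes showed the same arrangement. Of 18 tested genes 9 had a site within 50 kb, and 8 of the 9 were lower in LPS+LA than in LPS. In the whole list 16 of 18 were lower. Only 5 different sites served these 9 genes, none with an LA peak. The site at chr5:92345122-92345445 (scores 12.9, 12.7 and 13.4) lay between Cxcl9 and Cxcl10, the interferon-induced ligands of CXCR3, 17043 and 1193 bp from their bounds. Cxcl9 had 5.78 and 8.27 CPM in LPS+LA, 79.2 and 82.4 CPM in LPS+HCl, 475 and 532 CPM in LPS and at most 0.201 CPM in LA and control. Cxcl10 had 6809 and 6557 CPM in LPS+LA, against 14360 and 14520 CPM in LPS. The log2 differences from LPS were -6.16 and -1.11 (adjusted p = 8.97e-20 and 0.00676).

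In the Ccl cluster the site at chr11:83563817-83564068 lay within 50 kb of Ccl5, Ccl6 and Ccl9, and the site at chr11:83688750-83689006 of Ccl3 and Ccl4, which are macrophage inflammatory proteins. Ccl9 had 1100 and 1180 CPM in LPS+LA, 4277 and 3968 CPM in LPS and 705 and 627 CPM in control (log2 -1.85 from LPS, adjusted p = 3.68e-16). Ccl6 had 53.5 and 49.4 CPM in LPS+LA and 46.8 and 49.5 CPM in LPS (log2 0.1, adjusted p = 0.453; 0.5 and 0.000323 under total-count scaling). The bounds of Ccl3 and Ccl4 overlap, so reads between them may be split uncertainly, and the call for Ccl4 was lost without either LPS or either LPS+LA library and under total-count scaling (adjusted p = 0.0521 to 0.0912).

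Of 21 tested cytokine genes 7 had a site near, with 4 lower and 2 higher in LPS+LA than in LPS. In the whole list 15 were lower and 3 higher. Il12b, the shared subunit of IL-12 and IL-23, held the site chr11:44410550-44410844 and had 24.5 and 19.5 CPM in LPS+LA against 765 and 705 CPM in LPS (log2 -5.06, adjusted p = 1.26e-13). That site had a peak in 2 of 3 LA samples. Csf2, which encodes GM-CSF, had 0.321 and 0.263 CPM in LPS+LA against 49.1 and 43.4 CPM in LPS. Tnfsf9 (4-1BB ligand) went the other way, with 994 and 1102 CPM in LPS+LA, 489 and 458 CPM in LPS+HCl, 202 and 208 CPM in LPS and 23.1 and 23.8 CPM in control (log2 2.35 from LPS, adjusted p = 1e-17). Ifnb1, interferon beta, had 66.7 and 59.4 CPM in LPS+LA and 22.2 and 25.4 CPM in LPS (log2 1.4, adjusted p = 0.0219), a call lost without any 1 of the LPS+LA, LPS+HCl or LPS libraries, without both libraries with neuron transcripts and with DESeq2 (adjusted p = 0.0573 to 0.279). All 4 tested genes of the NF-kB list near a site, Rel, Traf1, Socs3 and Map3k8, were lower in LPS+LA than in LPS and higher than in control, as were 20 of 20 lower in the whole list.

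AP-1 and cAMP-responsive genes were split. Of 22 tested AP-1 and immediate early genes 6 had a site near, and Fos and Fosl2 were higher in LPS+LA than in LPS while Atf3, Mafk, Egr1 and Klf6 were lower. In the whole list 7 were higher and 8 lower. Fos, a subunit of AP-1, had 235 and 195 CPM in LPS+LA, 193 and 184 CPM in LPS+HCl, 229 and 222 CPM in LA, 22.7 and 25.4 CPM in LPS and 42.3 and 43.4 CPM in control. Every acid-treated library was above every other, with a log2 difference of 3.16 between LPS+LA and LPS (SE 0.097, adjusted p = 5.07e-18) and 2.39 between LA and control (adjusted p = 1.06e-15). Its site, chr12:85430369-85430692, was 43198 bp away and had no LA peak. Atf3, which dampens Toll-like receptor output, had 271 and 236 CPM in LPS+LA against 666 and 653 CPM in LPS. Its site, chr1:191222045-191222434, ranked 22 by score and had a peak in 3 of 3 LA samples. Egr1, an immediate early zinc finger factor, lost its call under total-count scaling (log2 -0.23, adjusted p = 0.278).

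Of 19 tested cAMP and CREB targets 7 had a site near, with 4 higher and 2 lower. In the whole list 10 were higher and 5 lower. Nr4a1, an orphan nuclear receptor of the immediate early class, showed the largest rise among the genes near a site that reached 10 CPM in a group. It had 78.2 and 87.9 CPM in LPS+LA, 25.2 and 27.7 CPM in LPS+HCl, 180 and 157 CPM in LA, 1.94 and 1.59 CPM in LPS and 3.44 and 3.33 CPM in control. All libraries with added acid were above all others. The log2 difference was 5.55 between LPS+LA and LPS (SE 0.15, adjusted p = 1.06e-18) and 5.64 between LA and control (SE 0.13, adjusted p = 8.17e-20). The test of the difference between these gave log2 -0.09 (SE 0.26, adjusted p = 0.825). Dusp1, a phosphatase that ends MAP kinase signalling, had 664 and 773 CPM in LPS+LA against 342 and 356 CPM in LPS. Its stronger site, chr17:26529973-26530338, had scores of 32.4, 54.2 and 63.2 in LPS+LA and 11.2 in 1 LA sample. Pde4b, a cAMP phosphodiesterase, held 2 sites and was lower, with 139 and 141 CPM in LPS+LA against 392 and 367 CPM in LPS.

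The other lists gave mixed counts. Of 24 tested glycolysis and hypoxia genes 5 had a site near, with 2 higher (Aldoa and Txnip) and 2 lower (Hk1 and Pfkfb3), against 7 higher and 10 lower in the whole list. The call for Hk1 was lost under total-count scaling (adjusted p = 0.117), and that for Aldoa without LPS+LA library 1 or LPS library 1 (adjusted p = 0.0889 and 0.0723). Pfkfb3, which drives glycolytic flux, had 67.4 and 73.6 CPM in LPS+LA, 250 and 253 CPM in LPS+HCl, 247 and 234 CPM in LPS and 21.1 and 21.2 CPM in control. LPS+LA was lower than LPS by log2 -1.77 (adjusted p = 5.57e-15), and LPS+HCl differed from LPS by log2 0.06 (SE 0.077, adjusted p = 0.546). Its site, chr2:11482623-11483020, had a peak in 3 of 3 LA samples. Of 16 macrophage identity genes 8 had a site near, with 3 higher and 2 lower, against 4 higher and 6 lower in the whole list. Of the 3 higher, Cd68 lost its call without LPS library 2 (adjusted p = 0.0848) and Lyz2 without LPS+LA library 2 or LPS library 1 (adjusted p = 0.0967 and 0.0509). Mertk, the receptor for engulfing dying cells, had 3 sites, none with an LA peak, and 38.1 and 43.7 CPM in LPS+LA against 32.9 and 38.6 CPM in LPS (log2 0.19, adjusted p = 0.109; 0.6 and 2.21e-05 under total-count scaling). Of 17 tested angiogenesis and repair genes 5 had a site near, with 1 higher (Plau) and 4 lower, among them Mmp12 and Itgav, against 4 higher and 9 lower in the whole list. Pdgfb, also among the 4, lost its call under total-count scaling (adjusted p = 0.986). None of 13 tested heat shock genes had one.

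Plau, the urokinase-type protease, had 264 and 236 CPM in LPS+LA, 86.7 and 87.9 CPM in LPS+HCl, 533 and 482 CPM in LA, 32.1 and 34.2 CPM in LPS and 277 and 273 CPM in control. It was lowest in LPS and highest in LA, with a log2 difference of 2.91 between LPS+LA and LPS (SE 0.084, adjusted p = 1.98e-18) and 0.88 between LA and control (SE 0.073, adjusted p = 1.92e-09). Its site, 17293 bp away, had no LA peak.

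All 10 genes with the largest rises near a site were lower in LPS than in control, 9 of them by log2 -3.62 to -5.29. Both comparisons use the LPS libraries. Plekhg3, a guanine nucleotide exchange factor, held a site without LA peaks at chr12:76536851-76537099. It had 65.2 and 67.1 CPM in LPS+LA, 23.6 and 24.6 CPM in LPS+HCl, 139 and 125 CPM in LA, 2.59 and 2.25 CPM in LPS and 62.7 and 69.2 CPM in control. The difference from LPS was log2 4.77 (SE 0.14, adjusted p = 1.82e-18). Arl4c, a small GTPase, had 193 and 190 CPM in LPS+LA, against 8.62 and 9.25 CPM in LPS and 211 and 234 CPM in control. Its site, chr1:88692336-88692799, 5426 bp away, had scores of 28.9, 21.9 and 18.6 in LPS+LA and 19.5, 11.8 and 13.4 in LA. Sesn1, a sestrin that restrains mTORC1, held a site without LA peaks and had 40.4 and 41.1 CPM in LPS+LA, 2.85 and 3.17 CPM in LPS and 114 and 115 CPM in control.

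Ahdc1, Neurl1b, Fam214a, 1700017B05Rik, Tmem86a and Rab3il1 completed the 10 largest rises, with log2 differences of 3.66 to 4.72 between LPS+LA and LPS. Their sites had a peak in at most 2 of 3 LA samples, and those of Fam214a and Tmem86a in none. The 6 largest falls were Ccl17, Csf2, Saa3, Cxcl9, Cxcl3 and Fpr1, and none of their sites had an LA peak. Saa3, an acute phase protein, held the site chr7:46714585-46714845, 961 bp from an annotated start, with scores of 4.87, 7.19 and 6.31. It had 3.91 and 2.63 CPM in LPS+LA, 49.0 and 50.2 CPM in LPS+HCl, 1.1 and 2.01 CPM in LA, 291 and 271 CPM in LPS and 1.13 and 1.32 CPM in control.

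**Figure D5:**
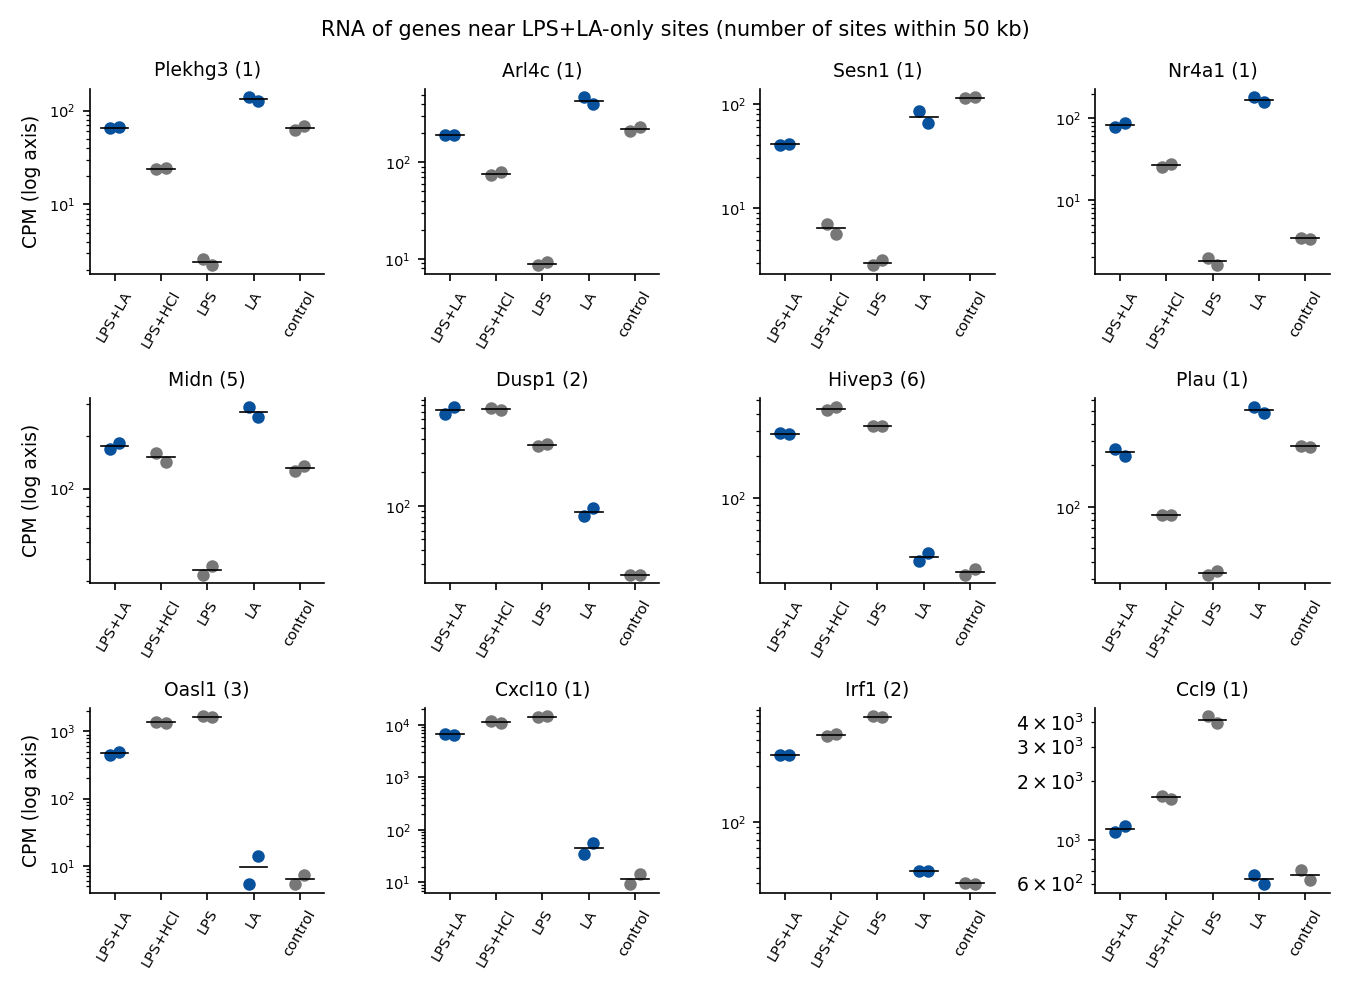
RNA level (CPM, log axis) of 12 genes near LPS+LA-only sites in each of 2 libraries (points) of 5 groups (x axis), with the group mean as a line and the number of sites within 50 kb in brackets. Blue points are groups given LA. Plekhg3, Arl4c and Sesn1 are lowest in LPS, and Oasl1, Cxcl10, Irf1 and Ccl9 are highest there.

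Hivep3 and Fat3 had 6 sites each, the most of any tested gene. Hivep3, a large zinc finger protein that binds kappa B sequences, had 290 and 288 CPM in LPS+LA, 423 and 447 CPM in LPS+HCl, 35.8 and 40.8 CPM in LA, 326 and 329 CPM in LPS and 28.7 and 31.7 CPM in control. All 6 sites lay inside it. The strongest, chr4:119962793-119963251, had scores of 35.7, 35.0 and 31.8 in LPS+LA and 43.7, 39.6 and 32.6 in LA, while 3 of the 6 had no LA peak. It was higher in LPS+LA than in control by log2 3.26 (adjusted p = 7.59e-20). Against LPS it was log2 -0.18 (adjusted p = 0.0358), a call lost without any of the LPS, LPS+LA or LPS+HCl libraries (adjusted p = 0.0504 to 0.165) and turned to 0.22 by total-count scaling. Fat3, an atypical cadherin, had its 6 sites in a gene spanning chr9:15910189-16502681 and 36.3 and 39.5 CPM in LPS+LA against 48.1 and 57.5 CPM in LPS (log2 -0.48, adjusted p = 0.000281), a call lost under total-count scaling (adjusted p = 0.525).

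Midn, which helps the proteasome degrade immediate early proteins, had 5 sites within 50 kb, the Sbno2 promoter site among them. It had 168 and 181 CPM in LPS+LA, 160 and 141 CPM in LPS+HCl, 291 and 254 CPM in LA, 32.5 and 36.6 CPM in LPS and 126 and 135 CPM in control. LPS was below all other groups, and the log2 difference between LPS+LA and LPS was 2.34 (SE 0.095, adjusted p = 8.9e-16). Its sites inside and just beyond the gene, chr10:80152883-80153192 and chr10:80163821-80164055, had a peak in 3 of 3 LA samples, and the other 3 in none. Septin9, a cytoskeletal GTPase, held 5 sites and was higher in LPS+LA than in LPS by log2 0.82 (adjusted p = 3.26e-09). Golph3l, a Golgi protein, and its neighbour Ensa, an inhibitor of the phosphatase PP2A, shared the same 5 sites and went in opposite directions, by log2 0.71 and -0.65 (adjusted p = 2.75e-07 and 6.05e-07).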

How the data were processed

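The members, gene lists and tests were chosen with earlier results of these data known. ATAC peaks were called per sample with MACS2 2.0.10 after alignment with BWA 0.5.9 to mm10, per the submitters' processing notes; the score in each deposited peak list is the authors' value and no header or label defines it. RNA values are expected counts from a table the authors deposited (HISAT and Bowtie2 per the submitters' processing notes); 6.07% of counts were not whole and were rounded, and 35 other per-sample columns of the table were not used.

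Peaks sharing 1 bp were merged with Python 3 and pandas. Counts of 12213 of 16059 genes passed edgeR's filter (minimum count 10, total 15), were scaled by TMM and tested with edgeR's quasi-likelihood test on all 10 libraries, two-sided, Benjamini-Hochberg 0.05. Each SE is the absolute log2 difference divided by the square root of that test's F statistic, and is not a value edgeR reports. The fit was checked on simulated data. Alternatives were DESeq2, other scalings, no filter, fewer samples, a replicate block, other distances and other peak rules. LPS against control and the fit without 2 libraries with neuron transcripts were added later.

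Genes were named by rule: the 10 largest rises and 6 largest falls near sites (at least 10 CPM in 1 group, no overlap), the 6 genes with most sites, the genes nearest to the 8 strongest sites, and members of 10 gene lists; 1 of these genes is counted but not reported here by name. Sequences come from RefSeq tables (GRCm38.p6) without a genome, so they were read only where sites touched promoter windows, and the planned printing of site sequences was not possible; chromosome 18 was not used there; 12 motifs were searched. Those shown were chosen after their motifs were seen.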

Additional observations from a re-analysis of the deposited data

Results flagged for a closer look

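For 14 of the 16 genes with the largest rises and falls near LPS+LA-only sites, the LA difference with LPS (LPS+LA against LPS) differed from the LA difference without it (LA against control) in edgeR's test of that difference, at adjusted p from 2.55e-16 to 0.0414. The values were log2 3.77 for Plekhg3, 2.7 for Ahdc1, 3.96 for Neurl1b, 4.32 for Fam214a, 3.45 for Arl4c, 3.04 for 1700017B05Rik, 4.24 for Tmem86a, 4.37 for Sesn1 and 3.82 for Rab3il1. Among the falls they were log2 -12.08 for Ccl17, -9.46 for Csf2, -6.76 for Saa3, -4.43 for Cxcl9 and -7.31 for Cxcl3. Ccl17 and Csf2 had 0 counts in both control libraries, so their fitted values depend on the prior count and are no bound. These genes were selected on the first of these differences, so the values are large partly by that choice. Nr4a1 and Fpr1 were the other 2 of the 16 (log2 -0.09 and -2.75, adjusted p = 0.825 and 0.302).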

How the results depend on the processing

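The number of sites lay between 1881 and 2337 under the 4 other peak rules and between 2264 and 4174 when 1 ATAC sample was left out, the highest without LPS+LA replicate 1. Sites with no LA peak lay between 1042 and 1433, and between 1401 and 2920 with 1 sample left out; sites with a peak in 3 of 3 LA samples were 501 with equal peak numbers. Genes higher and lower in LPS+LA than in LPS were 6208 and 2032 under total-count scaling, and near sites 1427 and 528. Of 1412 genes within 10 kb 409 (29.0%) were higher and 550 (39.0%) lower, where 29.9% of genes within 10 kb of any site were lower. Of 4048 within 100 kb 1309 (32.3%) were higher and 1272 (31.4%) lower, and of 1701 nearest genes 505 (29.7%) and 668 (39.3%). With 1 sample left out, near genes lay between 714 and 1355 higher and between 773 and 1422 lower. With the replicate block 3532 were higher and 3609 lower (near sites 837 and 896), and the call for Ifnb1 was lost (1.41, adjusted p = 0.0521). Deviations of same-numbered libraries correlated at -0.503 to 0.0495, so the numbers do not pair the samples, and the cause of lost calls was not tested. Without both libraries with neuron transcripts 3446 were higher and 3579 lower (near sites 821 and 891). Of the named genes' values under alternatives, 1443 kept direction and side of the threshold. Total-count scaling reversed Hivep3 (0.22), Il10 (0.34), Fcgr3 (0.16), Mrc1 (0.17) and Lgals3 (0.36). Leaving out 1 library reversed Serpinb1b (-5.74 to 0.17), Il10 (-0.31 to 0.15), Lgals3 (-0.12 to 0.04) and Pkm (-0.01 to 0.15).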
